A study of Bos taurus with 8 samples.

Results

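Histamine metabolism and mast cell genes were followed in the jejunum of Holstein bull calves. The members are 9 genes picked by symbol, HNMT, AOC1, HDC, HRH1, HRH2, CPA3, KIT, MS4A2 and FCER1A, and all 9 were found among the 17932 genes of the TPM table (transcript abundance scaled to an equal total in each library, with transcript length taken into account). They were picked with their levels in the CON and DCLI calves already known, so that difference is described for them without a test. Each of the 8 libraries comes from the jejunal tissue of a separate calf on day 90. The 4 CON calves had milk replacer and starter only, and the 4 DCLI calves also had 1 g/d of a heat-killed Limosilactobacillus ingluviei preparation, a postbiotic. The 4 calves of a group were drawn from the 7 on that diet. Starter was offered to both groups from day 33, milk replacer was reduced on day 82 and weaning was complete by day 89, so every calf had just been weaned.

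Histamine is made from histidine by the enzyme histidine decarboxylase, encoded by HDC, and mast cells store it in granules. It acts on G protein-coupled receptors, among them those encoded by HRH1 and HRH2. Breakdown follows 2 routes. Diamine oxidase, encoded by AOC1, is released by the intestinal epithelium and oxidises histamine outside cells, whereas histamine N-methyltransferase, encoded by HNMT, methylates it inside cells. The mast cell itself is known by the receptor for stem cell factor (KIT), the granule protease carboxypeptidase A3 (CPA3) and the high-affinity IgE receptor, whose chains include those encoded by FCER1A and MS4A2.

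Genes with a TPM of 1 or more numbered 12825 to 13552 per CON library and 12872 to 13247 per DCLI library, and read depth cannot be recovered from TPM. A label names liver for the extraction, but ALB, the albumin gene of liver, had a TPM of at most 1.07 and the 4 hepatocyte markers summed to at most 54.2, while VIL1, the brush border gene villin, was at 117 to 1274. The library CON4 stood apart, with a TPM of 744 for the B cell receptor gene CD79A, against 3.48 to 20.1 in the other 7 libraries. The summed TPM of 10 enterocyte markers was 1032 in CON4, 9113 to 28085 for CON1 to CON3, and 19259 to 33596 for DCLI. FABP6, which binds bile acids in ileal cells, had a TPM of 68963, 26023, 50176 and 1066 in CON1 to CON4, but it was 25603 in DCLI3 and at most 37.5 in the other DCLI libraries. The part of these differences in the results below was not tested. In bulk tissue, fewer cells of a type and less RNA per cell cannot be told apart.

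The 9 genes covered a wide range of levels, and AOC1 and HRH1 had the highest medians. The median TPM over the 8 libraries was 73.4 for AOC1, 23.4 for HRH1, 21.1 for HNMT, 3.60 for KIT, 3.31 for FCER1A, 2.43 for CPA3, 0.885 for HRH2, 0.53 for HDC and 0.20 for MS4A2. AOC1 was above HRH1 within 8 of the 8 libraries, HRH2 above HDC in 8 and HDC above MS4A2 in 8. HRH1 was above HNMT in 5 of 8 libraries, HNMT above KIT in 5 of 8 and KIT above FCER1A in 2 of 8, so those neighbours had no stable order. The ranges of all neighbouring genes overlapped over the 8 libraries. A TPM of 1 in at least 4 libraries, the minimum for the test across genes, was reached by 6 members, while HDC, HRH2 and MS4A2 stayed below it.

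**Figure D1:**
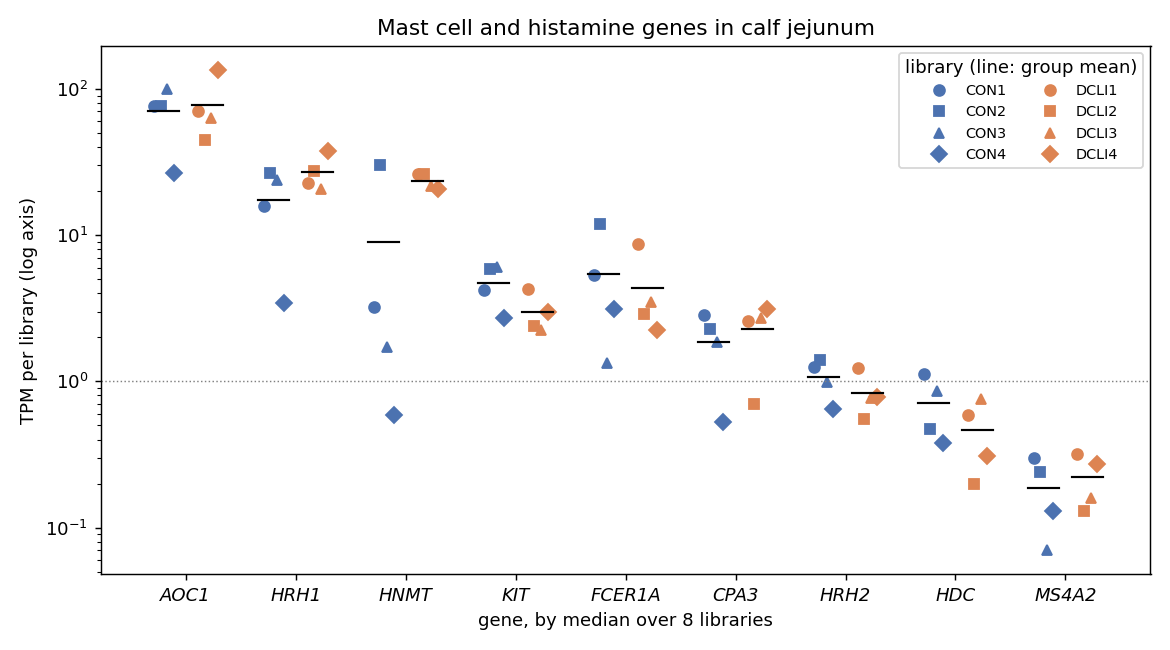
TPM of the 9 genes in each library on a log axis, ordered by median, with CON in blue, DCLI in orange, one symbol per calf and a black line at each group mean. The dotted line marks a TPM of 1. HNMT was at 20.7 to 30.2 in CON2 and the 4 DCLI libraries and at 0.59 to 3.24 in CON1, CON3 and CON4.

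HNMT was the member that varied most between calves. Its TPM was 3.24 in CON1, 30.2 in CON2, 1.72 in CON3 and 0.59 in CON4, whereas DCLI1 to DCLI4 had 26.0, 26.0, 21.5 and 20.7. The DCLI calves lay close together, and CON2 was above all of them, so the groups overlapped. The mean was 23.6 ± 2.85 (SD, n = 4) for the DCLI calves and 8.94 ± 14.2 (SD, n = 4) for the CON calves, and the coefficient of variation was 12.1% in DCLI and 159% in CON. The ratio of these means was 2.64, and 2.01 without CON4. On the log2(TPM + 1) scale, the fit across all genes gave a log2 fold change of 2.32 ± 0.78 (SE), and 1.78 without CON4.

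AOC1 had the highest median of the members, and it was not low in CON1 and CON3 as HNMT was. Its TPM was 76.3 in CON1, 76.9 in CON2, 100.3 in CON3 and 26.8 in CON4, and 70.4, 44.6, 62.7 and 134.6 in DCLI1 to DCLI4. The groups overlapped almost completely, with the highest value in DCLI4 and the lowest in CON4, the library with the lowest enterocyte markers. The mean was 78.1 ± 39.2 (SD, n = 4) for the DCLI calves and 70.1 ± 31.0 (SD, n = 4) for the CON calves. This gave a log2 fold change of 0.18 ± 0.45 (SE) that turned to -0.22 without CON4 and to -0.12 without DCLI4. AOC1 ranked between 880 and 4479 among the 17932 genes, depending on the library.

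The balance between both breakdown enzymes therefore differed from calf to calf. The TPM of AOC1 was 23.6 times that of HNMT in CON1, 58.3 times in CON3 and 45.3 times in CON4, but 2.55 times in CON2. In the DCLI calves the ratio was 2.70, 1.72, 2.92 and 6.49. AOC1 exceeded HNMT in each library, and the ratio in CON2 lay within the DCLI range. The summed TPM of AOC1 and HNMT was lowest in CON4 (27.3) and highest in DCLI4 (155.4).

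HDC, the histamine-forming enzyme, had a TPM of 1.13, 0.47, 0.86 and 0.38 in CON1 to CON4 and 0.59, 0.20, 0.76 and 0.31 in DCLI1 to DCLI4. CON1 was the single library above a TPM of 1. The groups overlapped, with a mean of 0.71 ± 0.349 (SD, n = 4) for the CON calves and 0.465 ± 0.256 (SD, n = 4) for the DCLI calves. From the fit with no minimum level, the log2 fold change was -0.22 ± 0.17 (SE). The summed TPM of AOC1 and HNMT was between 70.4 and 501 times that of HDC.

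HRH1 encodes the histamine receptor that contracts intestinal smooth muscle. Its TPM was 15.8, 26.5, 24.0 and 3.44 in CON1 to CON4 and 22.8, 27.6, 20.5 and 37.8 in DCLI1 to DCLI4. CON4 was low, DCLI4 was high, and the other 6 libraries were close to each other. The mean was 27.2 ± 7.69 (SD, n = 4) for the DCLI calves and 17.4 ± 10.4 (SD, n = 4) for the CON calves. The log2 fold change was 0.87 ± 0.54 (SE), and it was 0.28 without CON4. HRH2, the receptor that drives gastric acid secretion, was at 0.55 to 1.23 in DCLI and at 0.65 to 1.4 in CON, with a log2 fold change of -0.18 ± 0.16 (SE) with no minimum level. The remaining receptors stayed low as well, with HRH3 at 0.11 to 0.94 in CON and 0.76 to 1.63 in DCLI, and HRH4 at 0.07 to 0.87 in CON and 0.34 to 0.52 in DCLI.

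The gene sums hide several transcripts, and the authors' table gives 25 rows for the 9 genes without transcript names. RSEM, the program that made the values, divides reads between overlapping transcripts, so the level of a single row is less certain than the sum. AOC1 came almost entirely from 1 of its 2 rows, which held 95.3% to 98.6% of the TPM. HNMT had 3 rows. In CON2 they were at 8.51, 9.66 and 12.02, and in DCLI1 at 8.18, 7.33 and 10.5, so the high level was shared by all 3 rows. In CON3 and CON4 all HNMT signal lay in a single row, the second in CON3 (1.72) and the first in CON4 (0.59), with the other rows listed at 0. HRH1 had 4 rows, and the first was listed at 0 in DCLI4, at 0.18 in DCLI2 and at 0.30 in CON2, but at 8.95 in CON3. In CON4 this first row held the whole of HRH1 (3.44), and the other rows, of which a pair reached 15.0 and 22.8 in DCLI4, were listed at 0.

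**Figure D2:**
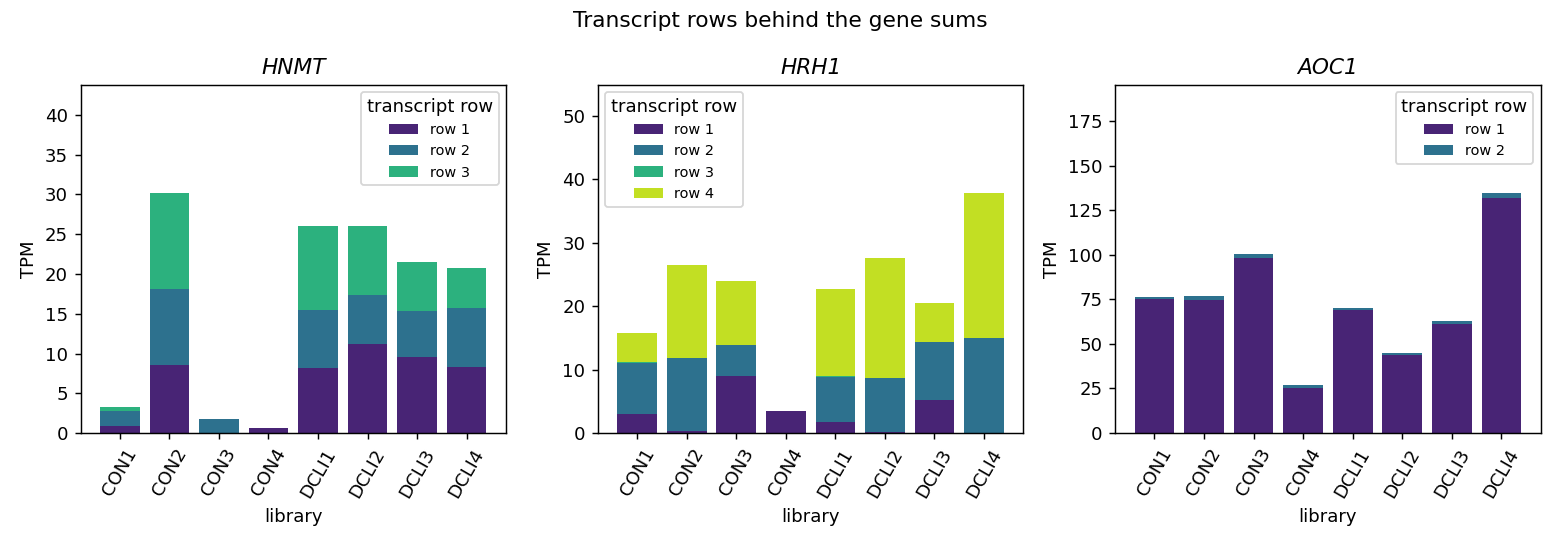
Stacked bars of the TPM of each transcript row of HNMT, HRH1 and AOC1 in the 8 libraries, each panel with its own axis from 0. All 3 HNMT rows are present in CON2 and the DCLI libraries, and the first HRH1 row is the sole one in CON4.

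The mast cell members CPA3 and KIT were low in every calf. CPA3 had a TPM of 2.82, 2.28, 1.85 and 0.53 in CON1 to CON4 and 2.57, 0.70, 2.70 and 3.14 in DCLI1 to DCLI4. Both groups held 1 low calf, CON4 and DCLI2. The mean was 1.87 ± 0.978 (SD, n = 4) for the CON calves and 2.28 ± 1.08 (SD, n = 4) for the DCLI calves. This gave a log2 fold change of 0.19 ± 0.37 (SE) that became -0.08 without CON4. KIT was at 4.21, 5.83, 6.04 and 2.73 in CON1 to CON4, and at 4.25, 2.40, 2.24 and 2.98 in DCLI1 to DCLI4. Of the CON calves, CON2 and CON3 were above every DCLI calf, CON1 was just under DCLI1, and CON4 was within the DCLI range. The mean was 4.70 ± 1.55 (SD, n = 4) for the CON calves and 2.97 ± 0.912 (SD, n = 4) for the DCLI calves. This gave a log2 fold change of -0.51 ± 0.27 (SE), which stayed between -0.69 and -0.39 when any 1 calf was left out.

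KIT is also made by the interstitial cells of Cajal, the pacemaker cells of the gut wall, and the tissue held muscle. The mean level of 6 smooth muscle markers on the log2(TPM + 1) scale was 8.57, 8.18, 10.1 and 7.41 in CON1 to CON4. In DCLI1 to DCLI4 it was 6.78, 8.54, 7.97 and 7.15. It was highest in CON3, where KIT was also highest. In DCLI2, where KIT was at 2.40, it was above that of CON2, where KIT was at 5.83. ANO1, a channel gene of the same pacemaker cells, was at 2.39, 3.13, 11.4 and 1.63 in CON1 to CON4 and at 1.27 to 3.55 in DCLI. Of the other pacemaker cell markers, ETV1 was also highest in CON3 (6.97), but EDN3 was highest in DCLI4 (68.0) and THBS4 in CON1 (5.29). Over 4 pacemaker cell markers the mean level was 2.17 to 3.58 in CON and 2.31 to 2.69 in DCLI. The part of muscle or pacemaker cells in the KIT values was not tested.

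FCER1A and MS4A2 encode the alpha and beta chains of the high-affinity IgE receptor. FCER1A had a TPM of 5.31, 11.8, 1.33 and 3.12 in CON1 to CON4 and 8.70, 2.87, 3.49 and 2.26 in DCLI1 to DCLI4. The highest and the lowest value were both in CON calves, and the log2 fold change was -0.12 ± 0.54 (SE), turning to 0.30 without CON2 and to 0.07 without DCLI4. MS4A2 was barely detected, at 0.30, 0.24, 0.07 and 0.13 in CON and 0.32, 0.13, 0.16 and 0.27 in DCLI, with a log2 fold change of 0.04 ± 0.08 (SE) with no minimum level. FCER1G, whose gamma chain is shared with other receptors of many white blood cells, was far above both, at 74.3 to 100 in CON and 55.9 to 88.1 in DCLI. FCER1A is also made by dendritic cells, and the summed TPM of 5 dendritic cell markers was 23.1 to 64.5 in CON and 24.3 to 52.5 in DCLI.

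Across the fit with limma on log2(TPM + 1), 0 of 13228 genes (0%) passed an adjusted p of 0.05 together with a log2 change of 1 or more in either direction, and so 0 of the 6 members tested. At an unadjusted p under 0.05, 541 genes (4.09%) were higher and 396 (2.99%) lower in DCLI, and among the 6 members 1 was higher (HNMT) and 0 lower. A log2 fold change of 1 or more was seen for 472 genes (3.57%), among them 1 member (HNMT), and of -1 or less for 201 (1.52%), with 0 members. Groups without overlap were seen for 302 genes (2.28%) that were higher and 411 (3.11%) that were lower in DCLI, and for 0 of the 6 members. Of the 6, 4 had a log2 fold change above 0, as had 43.5% of all genes. The median was 0.19 for the 6 members and -0.06 for all genes tested. It was -0.15 for the members without CON4, against 0.01 for all genes. Nothing is read from these counts, because the members were picked with this comparison known. Leaving out 1 calf mattered most for HNMT. Without CON2, 9 of 13073 genes (0.0688%) passed the adjusted threshold, all higher in DCLI, and HNMT was among them with a log2 fold change of 3.21. For HNMT this is a description and no test, since it was picked on these values.

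The 3 genes whose levels followed HNMT most closely over the 8 libraries were LOC100125266, ASAH2 and PON3. LOC100125266, which has the synonym IAP, had a Pearson's r of 0.99 with HNMT on the log2(TPM + 1) scale (n = 8), and it had a TPM of 22.5, 398, 7.01 and 0.57 in CON1 to CON4 and of 259 to 729 in DCLI. ASAH2, the neutral ceramidase, had an r of 0.98, with 2.36, 68.9, 0.42 and 0.03 in CON and 21.9 to 65.7 in DCLI. PON3, a paraoxonase, also had 0.98, with 14.3, 132, 12.1 and 2.84 in CON and 63.6 to 163 in DCLI. Each of them was high in CON2 and low in CON1, CON3 and CON4, the pattern of HNMT itself. Without CON4 the r was 0.98, 0.98 and 0.97 (n = 7). These genes are the closest of all genes tested, so a high r is built into their choice.

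The enterocyte markers differed in how far they resembled HNMT. The mean level of the 10 markers on the log2(TPM + 1) scale was 7.33, 8.62, 7.25 and 4.60 in CON1 to CON4 and 8.43 to 9.03 in DCLI, so CON2 was the single CON calf within the DCLI range. FABP2, which carries fatty acids in enterocytes, was at 4239, 19800, 3939 and 349.5 in CON1 to CON4 and 11320 to 21045 in DCLI. SLC15A1, the peptide transporter, was at 158, 424, 147 and 23.4 in CON1 to CON4 and 330 to 437 in DCLI. Both were higher in CON2 than in the other CON calves. VIL1 was different, with its highest level in CON1, at 1274, where HNMT was at 3.24, and 744 in CON3, where HNMT was at 1.72. ANPEP was also highest in CON1 (3798). DPP4 was at 167 in CON1 and 244 in CON3, within its DCLI range of 162 to 252. SLC5A1 was at 313 in CON1, within its DCLI range of 211 to 369. APOA4, SI and ALPI were higher in CON2 than in the other CON calves, as FABP2 was, but ALPI did not exceed 1.75. LCT, the milk sugar enzyme lactase, was at 0.09 in CON1, 52.8 in CON2, listed at 0 in CON3 and CON4, and 63.7 to 518 in DCLI, so CON2 was also the single CON calf with a level over 1. LCT is 1 of the 10 markers, and its weight in their mean level was not separated. FABP6 was high both in CON2 and DCLI3, where HNMT was high, and in CON1 and CON3, where HNMT was low.

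The genes closest to AOC1 were PTGR1, which encodes prostaglandin reductase 1 (r = 0.95), LOC112448102 (r = 0.95) and TUBA1C, an alpha tubulin (r = 0.94), over 8 libraries. Without CON4 these were 0.91, 0.87 and 0.88. PTGR1 had a TPM of 122, 151, 176 and 30.2 in CON1 to CON4 and 116, 110, 114 and 255 in DCLI1 to DCLI4, lowest in CON4 and highest in DCLI4 as AOC1 was. CPA3 was closest to CX3CL1, the chemokine fractalkine (r = 0.95), AGT, which encodes angiotensinogen (r = 0.92), and CD209, a lectin of macrophages and dendritic cells (r = 0.92). CD209 was lowest in DCLI2 (4.43) and CON4 (6.25), the calves with the least CPA3. For MS4A2 the closest were ATP5F1B, GPI and IDH3B, genes of energy metabolism, with r = 0.96, 0.94 and 0.94, but its own TPM never exceeded 0.32. As for HNMT, the genes closest to AOC1, CPA3 and MS4A2 were chosen by their r, so a high r is built in.

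**Figure D3:**
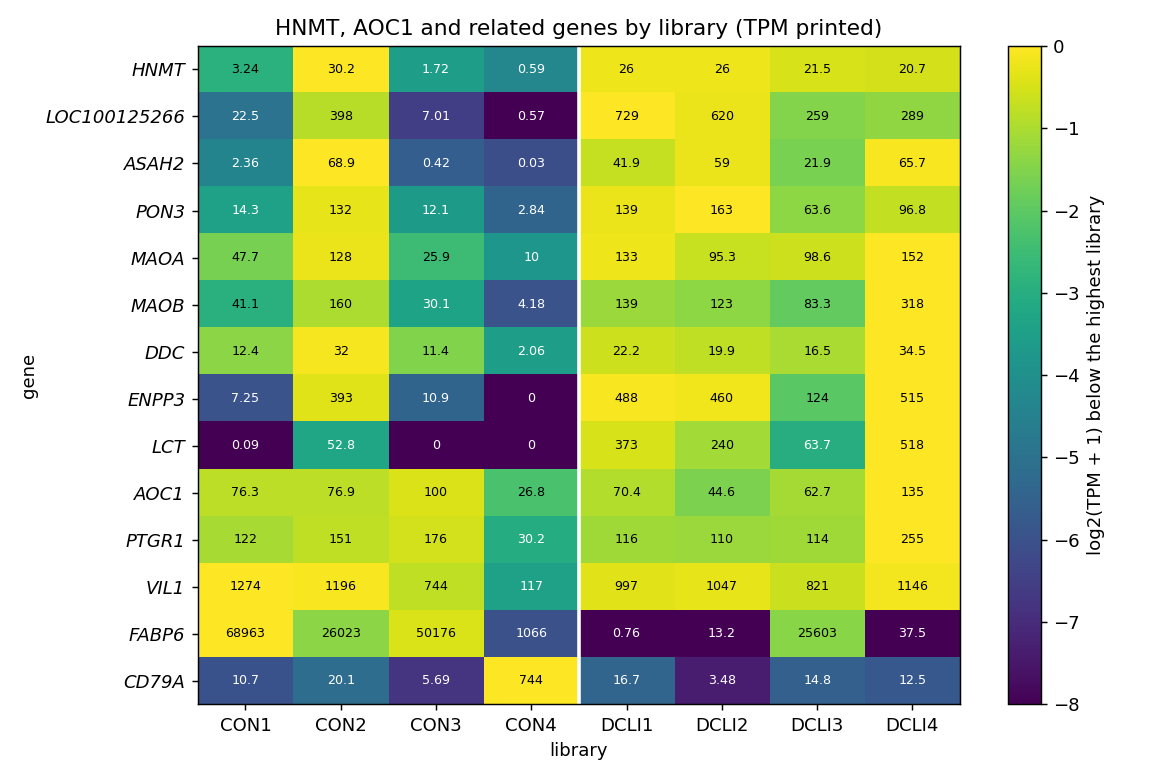
TPM of HNMT, AOC1 and related genes, printed in each cell, for CON1 to CON4 and DCLI1 to DCLI4, with colour for log2(TPM + 1) below the highest library of that gene. HNMT, LOC100125266, ASAH2, PON3, MAOA, MAOB and ENPP3 are nearer to their highest library in CON2 and DCLI than in the other CON libraries. They are farthest below it in CON4, as AOC1 and PTGR1 are, but AOC1 and PTGR1 are not low in CON1 and CON3.

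Relations between members were computed for the 6 that passed the minimum level, so none was computed for MS4A2. Over the 7 libraries without CON4, there were 17 relations, between pairs of these members or between AOC1 or HNMT and the enterocyte markers. In exact permutation tests 0 of them had an adjusted p under 0.05 for Pearson's r or Spearman's rho. For CPA3 with KIT, r was 0.18 (exact permutation p = 0.766, adjusted 0.814) and rho was -0.29 (p = 0.556, adjusted 0.937), and r was -0.65 without DCLI2 and CON3. For CPA3 with FCER1A, r was 0.24 (exact permutation p = 0.640, adjusted 0.814) and rho was 0.07 (p = 0.906, adjusted 0.963), and r was -0.92 without DCLI2 and CON3. For KIT with FCER1A, r was 0.29 (exact permutation p = 0.509, adjusted 0.814) and rho was 0.11 (p = 0.840, adjusted 0.963), and r was 0.16 without DCLI3 and DCLI2. For AOC1 with the mean enterocyte marker level, r was -0.16 (exact permutation p = 0.710, adjusted 0.814) and rho was -0.07 (p = 0.906, adjusted 0.963), and r was -0.68 without DCLI4 and DCLI2. The 1 relation with an unadjusted p under 0.05 was that of HNMT with the same marker level, with r of 0.95 (exact permutation p = 0.025, adjusted 0.425) and rho of 0.50 (p = 0.267, adjusted 0.937). It rests on CON1 and CON3, without which r was -0.15, and HNMT is low in these calves and high in the other 5, so a pooled r describes that split. The part of enterocytes in the HNMT values was not tested further. The summed TPM of CPA3, KIT, MS4A2 and FCER1A was 12.6, 20.2, 9.29 and 6.51 in CON1 to CON4 and 15.8, 6.10, 8.59 and 8.65 in DCLI1 to DCLI4.

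Other mast cell genes were compared through a list of 23 granule, lineage and surface genes, of which 16 had a row and 14 were tested. By limma 0 were called in either direction, against 0% of all genes. At an unadjusted p under 0.05 there were 1 higher and 1 lower, against 4.09% higher and 2.99% lower of all genes. Of the 14, 4 were higher and 10 lower in DCLI, and 43.5% of all genes tested were higher. The median log2 fold change was -0.14 for the list and -0.06 over all genes tested. The list median was -0.26 without CON4 and -0.0045 without CON1, against 0.01 and -0.14 over all genes. TPSB2, the mast cell tryptase, had a TPM of 2.35, 2.02, 2.31 and 4.96 in CON and 1.86, 1.04, 2.81 and 0.97 in DCLI, with a log2 fold change of -0.55 ± 0.31 (SE, limma adjusted p = 0.730), and -0.33 without CON4. CSF2RB, the shared receptor chain for IL-3, IL-5 and GM-CSF, had a log2 fold change of -0.71 ± 0.31 (SE, limma adjusted p = 0.696). Its TPM was 21.7, 13.5, 11.1 and 21.8 in CON and 11, 10.0, 13.1 and 5.79 in DCLI. HPGDS, the prostaglandin D2 synthase of mast cells, and SLC18A2, the vesicle transporter that loads histamine, did not exceed 0.32 and 0.46. Other genes of the list were higher, among them LTC4S at 3.46 to 20.1, IL1RL1 at 1.22 to 14.6 and SRGN at 103 to 403.

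The list members with the widest differences are also known from other cells. ENPP3, an ectoenzyme that marks human basophils and mast cells and that rodents also make in the intestinal epithelium, had a TPM of 7.25, 393, 10.9 and 0 in CON1 to CON4 and 488, 460, 124 and 515 in DCLI1 to DCLI4. It was high in CON2 and the DCLI calves, as HNMT was, and its log2 fold change was 4.63 ± 1.52 (SE, limma adjusted p = 0.692). It was 3.36 without CON4, 6.24 without CON2 and 1.3 with array weights, which give calves far from their group less weight. RGS13, a regulator of G protein signaling in mast cells and germinal centre B cells, was at 211 in CON4 and at 0.59 to 1.42 elsewhere. Markers of eosinophils and basophils were near 0, with a summed TPM of at most 1.05 for the 2 of 6 with a row.

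Signaling genes downstream of the IgE receptor were all tested, 16 of 16. None was called by limma (0 of 16). At an unadjusted p under 0.05, 0 were higher and 1 lower, against 4.09% higher and 2.99% lower of all genes. In DCLI 12 were lower and 4 higher, and 43.5% of all genes tested were higher. The median log2 fold change was -0.42, against -0.06 over all genes. The list median was -0.06 without CON4 and -0.05 with array weights, against 0.01 and -0.03 over all genes. The kinase gene BTK was at 103 in CON4 and at 4.18 to 7.79 elsewhere, and its log2 fold change went from -1.10 ± 0.82 (SE, limma adjusted p = 0.758) to -0.15 without CON4. VAV1, INPP5D and PRKCB, a guanine exchange factor, a lipid phosphatase and a protein kinase C, were also highest in CON4, at 110.5, 117 and 47.1. These genes are used by B cells as well, whose markers had a summed TPM of 3369 in CON4 and 18.2 to 39.2 in the other libraries. LYN, the kinase that first phosphorylates the receptor, was the 1 gene of the 16 that separated the groups, with DCLI below CON. It was at 76.2, 87.2, 90.2 and 83.8 in DCLI against 114, 103, 103 and 176 in CON, and it too was highest in CON4. Its limma log2 fold change was -0.52 ± 0.21 (SE, adjusted p = 0.696), and -0.34 without CON4. Of all genes tested, 3.11% were lower in DCLI without overlap.

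Of 10 genes of cytokines that act on mast cells, or of their receptors, 8 had a row and 5 were tested. By limma 0 were called, against 0% of all genes. At an unadjusted p under 0.05 there were 0, against 4.09% higher and 2.99% lower of all genes. In DCLI 2 were higher and 3 lower, and 43.5% of all genes tested were higher. The median log2 fold change was -0.02, against -0.06 over all genes. KITLG, the stem cell factor that binds KIT, was at 4.99, 6.84, 4.74 and 2.11 in CON and 6.06, 2.90, 4.55 and 5.68 in DCLI (limma log2 fold change 0.07 ± 0.32 SE, adjusted p = 0.952, and -0.19 without CON4). TSLP, an epithelial alarmin, was at 0.84 to 2.36 in CON and 1.13 to 1.54 in DCLI. IL4R, the IL-4 receptor, was the 1 of these 5 without overlap, against 3.11% of all genes lower in this way, and the gap was narrow, at 31.9 to 40.0 in DCLI and 40.4 to 53.9 in CON (limma log2 fold change -0.28 ± 0.17 SE, adjusted p = 0.739). TGFB1 had a log2 fold change of -0.58 ± 0.26 (SE, limma adjusted p = 0.696), and -0.39 without CON4. IL4 was above 0 in 2 libraries, CON1 (0.28) and DCLI2 (0.37), and IL13 only in CON1 (0.89).

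Among other histamine and biogenic amine genes, MAOB, MAOA and DDC were higher in CON2 and in the DCLI calves than in the other CON calves, as HNMT was. The list held 18 genes, 17 with a row and 14 tested. Of these 14, 9 were higher and 5 lower in DCLI, and 43.5% of all genes tested were higher. The median log2 fold change was 0.13, against -0.06 over all genes. Without CON1 it was -0.06, against -0.14 over all genes. By limma 0 were called, and 2 had an unadjusted p under 0.05, both higher, against 4.09% of all genes higher in this way. MAOB, which oxidises the methylated histamine that HNMT makes, had a TPM of 41.1, 160, 30.1 and 4.18 in CON1 to CON4 and 139, 123, 83.3 and 318 in DCLI1 to DCLI4. MAOA, its partner for serotonin, was at 47.7, 128, 25.9 and 10.0 in CON and 133, 95.3, 98.6 and 152 in DCLI. In both genes CON2 lay within the range of the DCLI calves and the other CON calves lay under it. The log2 fold change was 2.18 ± 0.91 for MAOB (SE, limma adjusted p = 0.696) and 1.68 ± 0.64 for MAOA (SE, limma adjusted p = 0.696), and 1.3 and 1.10 without CON4. With array weights it was 0.43 for MAOB and 0.45 for MAOA. DDC, the decarboxylase that makes serotonin and dopamine, was at 12.4, 32.0, 11.4 and 2.06 in CON and 22.2, 19.9, 16.5 and 34.5 in DCLI (limma log2 fold change 1.04 ± 0.62 SE, adjusted p = 0.739, and 0.41 without CON4). SLC22A3, a carrier of organic cations that include histamine, was highest in CON3 (10.0) and at 1.71 to 3.70 in the other libraries.

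**Figure D4:**
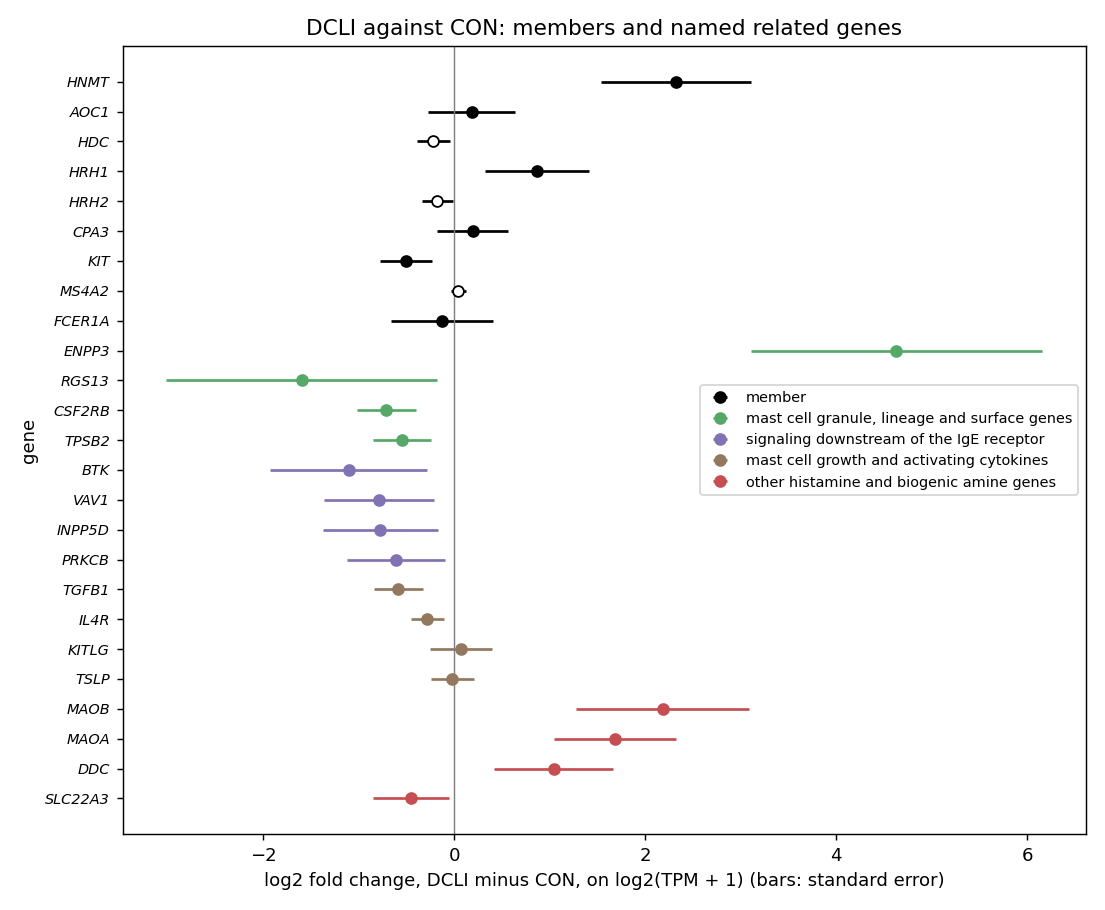
Log2 fold change (DCLI minus CON, log2(TPM + 1) scale) of the 9 members and of up to 4 genes of each list of related genes, with bars of 1 standard error. Open circles are members under the minimum level, taken from the fit without it. ENPP3 (4.63), HNMT (2.32), MAOB (2.18) and MAOA (1.68) lie farthest to the right, and 0 of the genes shown passed the adjusted threshold. BTK went from -1.10 to -0.15 without CON4.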

How the data were processed

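SOAPnuke, HISAT2 (bovine ARS-UCD1.2) and RSEM were used by the authors for read filtering, alignment and quantification, and the deposited TPM holds 1 value per transcript and library, with replicates not pooled. The deposited estimated counts are filled for 76 of 50681 rows, for 0 of which the values across libraries followed the TPM of the same row (r above 0.95), and were not used. A count model, such as the authors' DESeq2 (1.4.5), was therefore not fitted. TPM was summed by gene ID to 17932 genes. The RefSeq table of another assembly (ARS-UCD2.0) held all 9 members, so no coordinates are given.

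DCLI was compared with CON by limma 3.58.1 in R 4.3.3 (lmFit, eBayes with trend) on log2(TPM + 1). The 13228 genes tested reached a TPM of 1 in 4 or more libraries, and p-values were adjusted over all of them (Benjamini-Hochberg). Values of genes under this minimum come from the same fit with none. Because of the added 1, changes of low genes come out too small. The limma step was checked on simulated data. Relations between genes used exact permutation over 5040 pairings, adjusted over 17 relations. Named genes are the members, the 3 genes with the highest Pearson's r to AOC1, HNMT, CPA3 or MS4A2, and up to 4 tested genes per list, ranked by the size of the log2 fold change. The other genes given with values were chosen after their values were seen. Members and lists were chosen with earlier results of these data known. Genes of a list without a row were not analysed here. Depth cannot be read from TPM and no counting error was computed, so the only error given is the spread between calves. Alternatives changed the pseudocount, minimum level, scaling, variance model, weights, pairing and calves left out. Python 3.11.15, numpy 2.4.6, pandas 2.3.3 and matplotlib 3.10.9 were also used.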

Additional observations from a re-analysis of the deposited data

Results flagged for a closer look

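In 9 of 50 groups of 4 calves, formed by the 9 members and 16 related genes named above in each diet, 1 calf lay farther from the other 3, relative to the range of its group, than Dixon's 95% critical value allows. Chance gives about 1 in 20 groups, but these genes were picked by their values or by the size of their difference, which a single calf can raise, and 6 of the 9 are the library CON4 that stood apart, so the numbers are not comparable. Among the members this was HNMT in CON2, with a TPM of 30.2. ENPP3 stood apart in CON2 (393) and also in DCLI3 (124). CON4 stood apart for RGS13 (211), TPSB2 (4.96), BTK (103), VAV1 (110.5), INPP5D (117) and PRKCB (47.1).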

How the results depend on the processing

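HNMT kept a positive log2 fold change in 17 of 17 alternatives, from 0.61 with array weights to 3.21 without CON2, and 0 to 1 members passed the threshold when a calf was left out (HNMT, without CON2), which is no test of a gene picked on these values. KIT stayed negative in 16 of 16, whereas AOC1 changed sign in 3, CPA3 and FCER1A in 2 each and MS4A2 in 1. HRH1 was positive in 17 of 17, but it was near 0 with array weights, at 0.07. Leaving out 1 calf gave 0 to 9 genes called higher and 0 to 1 called lower, and at an unadjusted p under 0.05 it gave 276 to 870 genes higher in DCLI (870 without CON2, 276 without DCLI2, 285 without DCLI1) and 153 to 769 lower (769 without CON4, 153 without DCLI1, 188 without DCLI4, 241 without DCLI2). Array weights gave 909 lower, and turned the direction of PRKCB, DDC and KITLG among the related genes named. In all, KITLG changed sign in 4 alternatives and TSLP in 3. The median of the mast cell cytokine list was -0.43 with a mean TPM of at least 5, where that of all genes was -0.04. This minimum kept IL4R and TGFB1 and dropped KITLG, IL33 and TSLP, so the list itself differed. The cytokine list median was -0.22 with array weights, where that of all genes was -0.03, and -0.28 to 0.10 with 1 calf left out. The amine list median turned from 0.13 to -0.06 without CON1, where the median of all genes also fell, from -0.06 to -0.14. It was 0.03 with a pseudocount of 5 or with array weights. The mast cell list median ranged from -0.26 to -0.0045 with 1 calf left out. It was -0.27 with a mean TPM of at least 5, which dropped genes of this list too, among them TPSB2. The value of -0.0045 was without CON1, above the median of all genes in that fit, whereas the list was under it in the main fit. The signaling list median went from -0.42 to -0.05 with array weights, where that of all genes was -0.03.

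Calves with the same replicate number did not deviate together (correlations of -0.20 to 0.05). For CON and DCLI calves with different numbers the correlations were -0.41 to 0.37. So few pairs cannot exclude a pairing, and none was used in the main fit. With the replicate block, 0 genes were called, and the unadjusted p was under 0.05 for 521 that were higher and 324 that were lower. A TPM holds no read depth. The authors report similar numbers of clean reads for all libraries, but no counting error was computed for low values such as those of MS4A2 and HDC.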
